A study of Homo sapiens with 6 samples.

Results

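The genes described here encode chaperones of the cytosol and the mitochondrion and the helper proteins that work with them. They were chosen by symbol from the deposited gene count table: genes of the HSPA, HSPB, HSPD, HSPE and HSPH series, HSP90AA1, the numbered DNAJA, DNAJB and DNAJC genes, CCT2 to CCT8, and TCP1, CHORDC1, AHSA1, STIP1, BAG3, PTGES3, CDC37 and TRAP1. The endoplasmic reticulum (ER) chaperone genes HSPA5, HSP90B1, DNAJB9, DNAJB11 and DNAJC3 were left out of the set. This gave 78 of the 16362 genes in the table, under 77 symbols, because HSPA14 stands there under 2 identifiers. HSP90AB1, the constitutive cytosolic HSP90 gene, is not matched by the pattern, and its values are given beside those of HSP90AA1.

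Expression was compared between 3 libraries of MDA-MB-231 cells exposed for 24 h to CTI-2, a compound named by its code alone, and 3 control libraries of the same line, whose agent the labels give as none. MDA-MB-231 is a human triple-negative breast cancer line, and the title of the series concerns metastasis, epithelial-mesenchymal transition and MAPK signalling. The sources used here give neither the dose of CTI-2 nor any vehicle for the controls. Full-length cDNA was amplified and read on the Oxford Nanopore platform. Whether the libraries of a group are separate cultures is not stated, and the spread behind the p-values could then be technical.

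Chaperones bind unfolded stretches of proteins and keep them from clumping until they fold. HSP70 proteins bind and release their clients in an ATP-driven cycle that J-domain proteins (the DNAJ genes) start and nucleotide exchange factors reset, and HSP90 proteins act later on kinases, receptors and other clients chosen by co-chaperones. In the mitochondrion, HSPA9 pulls proteins in and the HSPD1 and HSPE1 chamber folds them, while in the cytosol the CCT ring folds actin and tubulin. Many of these genes are targets of heat shock factor 1 (HSF1), which binds heat shock elements in promoters.

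Totals ran from 2208261 to 3153469 reads in the CTI-2 libraries and from 2349758 to 3929532 reads in the control libraries, and 73 to 76 of the 78 chaperone genes had at least 1 read in a library. Levels are given as CPM, a gene's reads scaled to a library total of 1000000, and 3 reads correspond to 0.763 to 1.36 CPM. In these bulk samples fewer cells of a kind and less RNA per cell cannot be told apart. Of the genes commonly low in this line, ESR1 reached at most 0.453 CPM in CTI-2 libraries and 0.509 CPM in control libraries, and CDH1 at most 0.337 CPM in CTI-2 libraries and 0 in control libraries, while ERBB2 and EPCAM had 4.98 to 11.1 CPM in CTI-2 libraries and 8.86 to 10.7 CPM in control libraries. Of those commonly present, KRT18, CD44 and CAV1 were detected at 57.0 CPM or more in every library, whereas VIM, a defining mesenchymal marker, had only 14.5 to 16.8 CPM in CTI-2 libraries and 18.3 to 18.9 CPM in control libraries, and AXL 4.76 to 7.41 CPM in CTI-2 libraries and 2.98 to 3.56 CPM in control libraries. A control library stood apart: on the first principal component of all genes control 2 (-8.16) lay nearer to the CTI-2 libraries (13.7 to 25.1) than controls 1 and 3 did (-23.1 each).

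Few of the chaperone genes passed the test. Of the 78 genes, 63 passed a filter on low counts and 15 did not, none of these 15 having more than 13 reads in a library: CCT6B, DNAJA4, DNAJB5, DNAJB7, DNAJC16, DNAJC22, DNAJC25, DNAJC27, DNAJC28, HSPA1L, HSPA2, HSPA12B, HSPB7, HSPB9 and HSPB2-C11orf52. In edgeR's quasi-likelihood test, with p-values adjusted by the Benjamini-Hochberg method over all 9848 genes tested and a threshold of 0.05, 3 of the 63 were higher with CTI-2 (CHORDC1, DNAJC7 and HSPA14), 1 was lower (HSPA8), and 59 did not pass. Over all genes tested 3.39% were called higher and 4.64% lower, so neither count stands apart from the table as a whole. The log2 fold changes of the 63 genes, CTI-2 over control, ran from -0.93 to 0.52 with a median of 0.10 and a median standard error (SE) of 0.12, and 41 were positive, which is 65.1%. Over all genes the median was -0.01 and 48.7% were positive. CPM did not overlap between the groups for 17 chaperone genes that were higher with CTI-2 and 6 that were lower, against 13.2% and 15.6% of all genes. At an unadjusted p under 0.05 there were 10 higher and 3 lower, against 11.3% and 12.7% of all genes.

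Some counts are uncertain because genes share bases or sequence. Of the 78 genes 30 overlap another counted gene, among them AHSA1, CCT3, CCT4, CDC37, DNAJB1, DNAJC2, DNAJC30, HSP90AA1, TCP1 and TRAP1 of those named below, and without knowledge of strand their reads cannot be told from those of the partner. GENCODE 29 also names 9 pseudogenes of DNAJC19, 6 of DNAJA1, 5 of PTGES3, 2 of HSPB1 and 1 of HSPA9, none of them in the count table. Outside the set, AFG3L2, BAG6, DNAJB9, DNAJB11, ERBB2, ESR1, HSF1, HSP90B1, KRT18, PFDN1 and PFDN2 overlap a counted gene on the opposite strand. DNAJB11 also overlaps a counted gene on the same strand.

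Fold changes in these libraries ran with the level of a gene. Spearman's rho between the log2 fold change and the mean CPM was 0.24 over the 63 chaperone genes and 0.26 over all 9848, and with annotated transcript length it was -0.12 over the 63 genes and -0.14 over the 9218 genes with a length. These are descriptions across genes that share the same 6 libraries. Among the 28 chaperone genes with a mean of at least 100 CPM, 2 were called higher and none lower, the median log2 fold change was 0.11 and 82.1% were positive. Among all 1722 genes at that level 11.0% were called higher and 4.59% lower, the median was 0.14 and 72.8% were positive. The positive median of the chaperone genes was therefore no larger than that of other genes of like level. At this level CPM did not overlap for 11 of the 28 chaperone genes that were higher and 2 that were lower. Of all 1722 genes, 616 were higher and 202 lower without overlap.

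**Figure D1:**
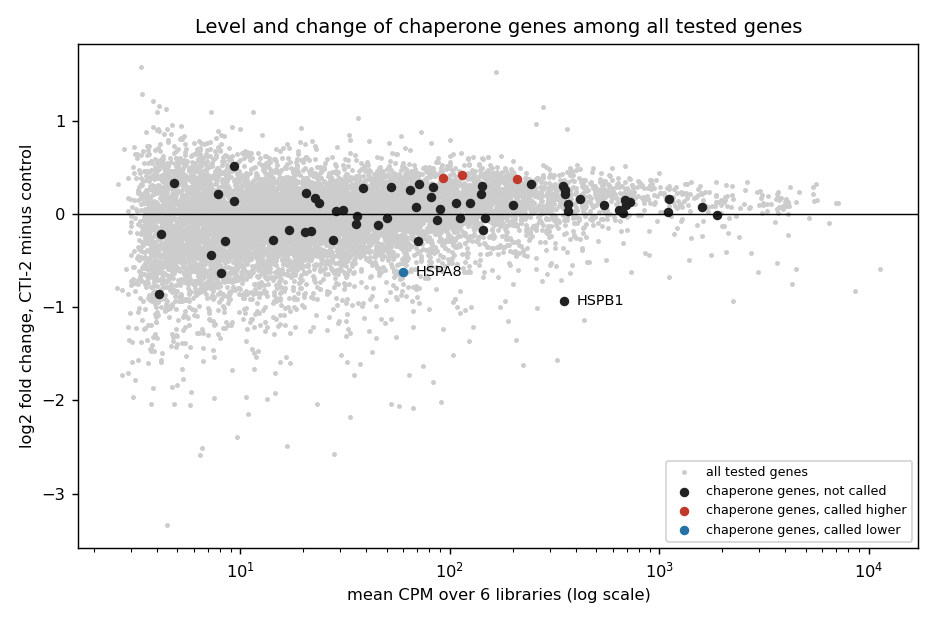
Log2 fold change (CTI-2 over control, vertical axis) against mean CPM over the 6 libraries (log scale) for each of the 63 chaperone genes tested and for all 9848 genes tested. The chaperone genes run from -0.93 (HSPB1) to 0.52 (HSPBAP1), and CHORDC1, DNAJC7 and HSPA14, called higher, and HSPA8, called lower, are coloured.

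Of the HSP70 and HSP110 family, 14 genes were in the table and 11 were tested, with 1 higher, 1 lower, and 8 of 11 log2 fold changes negative (median -0.07). HSPA8, which encodes the constitutive cytosolic HSP70, had 45.0, 50.9 and 42.1 CPM in CTI-2 libraries, against 68.2, 69.5 and 82.6 CPM in control libraries. All 3 CTI-2 libraries lay below all 3 controls. The gene (ENSG00000109971, chromosome 11, 123057489 to 123063230, minus strand; coordinates here and below are those of GENCODE 29, GRCh38) averaged 46.0 ± 4.47 CPM with CTI-2 and 73.4 ± 7.96 CPM in controls (SD, n = 3 each), a log2 fold change of -0.61 (SE 0.13, 95% interval -0.88 to -0.35, edgeR adjusted p = 0.0029), or 1.53-fold lower. The call held whichever library was left out, with adjusted p between 0.0042 and 0.0228. GENCODE 29 names 17 pseudogenes of HSPA8 and none of them is in the count table, so how reads that match both were counted is uncertain. The level is low for a gene known for abundant mRNA in cultured cells. The call rests on the 93 to 273 reads a library that were counted, and whether other reads of the gene were left out was not tested.

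The promoter of HSPA8 is shown because it holds 2 matches to the heat shock element, spelled here as GAANNTTCNNGAA on either strand (TTCNNGAANNTTC in the other orientation). The 250 bases before the RefSeq start (chr11:123062137-123062386, GRCh38.p14, minus strand, 5′ to 3′) are printed with the matches in capitals.
HSPA8: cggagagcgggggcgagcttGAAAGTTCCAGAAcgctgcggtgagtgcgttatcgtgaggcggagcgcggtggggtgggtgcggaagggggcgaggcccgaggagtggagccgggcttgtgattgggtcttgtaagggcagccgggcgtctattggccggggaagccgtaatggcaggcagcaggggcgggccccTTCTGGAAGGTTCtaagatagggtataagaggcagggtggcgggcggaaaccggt

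The inducible HSP70 genes HSPA1A and HSPA1B are near-identical copies, so their reads may be split between them. HSPA1A had 19.98, 21.9 and 14.5 CPM in CTI-2 libraries, against 21.6, 24.2 and 20.9 CPM in control libraries (log2 fold change -0.19, edgeR adjusted p = 0.588). HSPA1B had 5.39, 5.39 and 7.70 CPM in CTI-2 libraries, against 7.32, 9.42 and 8.09 CPM in control libraries (log2 fold change -0.43, edgeR adjusted p = 0.381). Both pairs of groups overlapped, and neither gene passed the test. HSPH1 and HSPA4, HSP110 proteins that act as nucleotide exchange factors, had log2 fold changes of -0.07 and -0.04 (edgeR adjusted p = 0.804 and 0.871), and both signs turned when single libraries were left out. HSPA6, a strictly inducible HSP70 gene, has no entry in the count table, so no level can be given.

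HSPA14 encodes an atypical HSP70 that works at the ribosome with the J-domain protein DNAJC2. The HSPA14 entry of longer span (ENSG00000187522, chromosome 10, 14838164 to 14871741, plus strand) had 101, 100.4 and 109 CPM in CTI-2 libraries, against 85.5, 79.9 and 78.7 CPM in control libraries. The groups did not overlap, and the log2 fold change was 0.39 (SE 0.12, 95% interval 0.16 to 0.63, edgeR adjusted p = 0.0280), or 1.31-fold. The shorter HSPA14 entry (ENSG00000284024, 14838160 to 14847018) covers only the first part of the same stretch and averaged 12.7 ± 3.12 CPM with CTI-2 and 16.0 ± 0.376 CPM in controls (SD, n = 3 each; log2 fold change -0.28, edgeR adjusted p = 0.468). The reads of the 2 entries, and of CDNF on the opposite strand, may have been split by the counting, so the higher level of the longer entry is uncertain. Its call was kept only without control 2 (adjusted p = 0.0132) and was lost without any 1 of the other 5 libraries (0.0710 without control 1, 0.0824 without control 3, and 0.0772, 0.0807 and 0.144 without CTI-2 libraries 1, 2 and 3). It was also lost in DESeq2 (adjusted p = 0.0510).

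**Figure D2:**
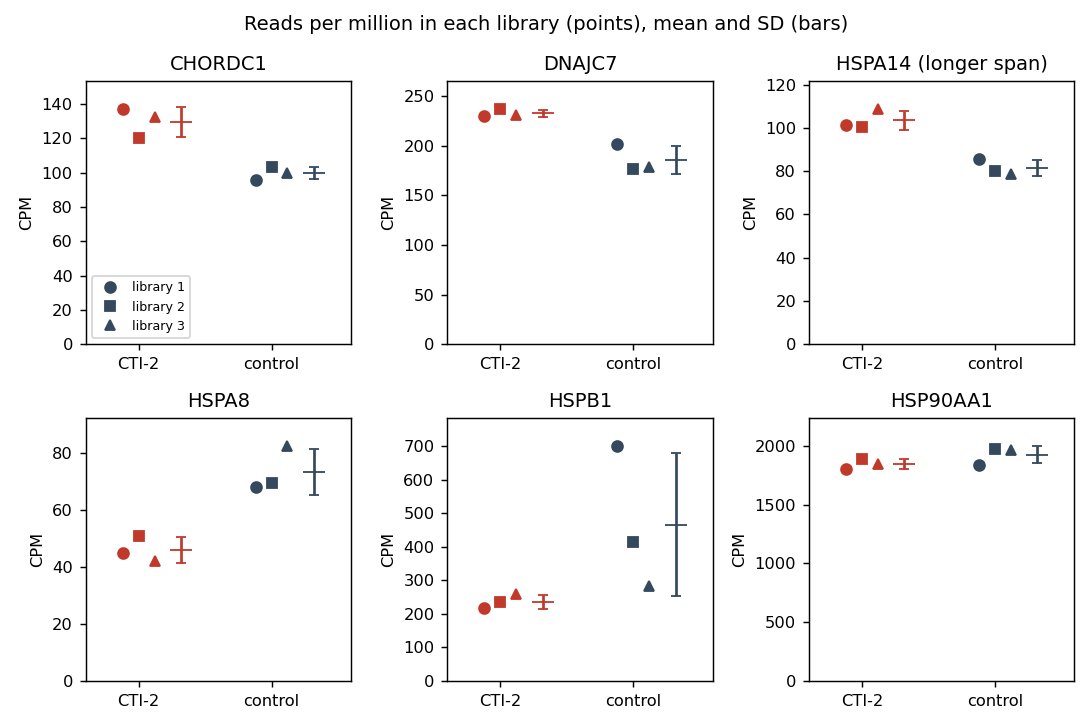
CPM in each library (points), with the mean and SD of 3 libraries (bars), for 6 chaperone genes, CTI-2 on the left of control in every panel. CHORDC1, DNAJC7 and HSPA14 lie higher with CTI-2 without overlap, HSPA8 and HSPB1 lie lower without overlap, and HSP90AA1 overlaps.

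J-domain proteins hand clients to HSP70. Over the 3 DNAJ classes 37 genes were in the table and 29 were tested, of which DNAJC7 alone was called. The log2 fold change was positive for 21 of the 29 (72.4%, median 0.22), against 48.7% of all genes tested and 72.8% of those with a mean of at least 100 CPM (median 0.14). Most of the 29 lie below that level, DNAJA3, DNAJB1, DNAJC4, DNAJC10, DNAJC15 and DNAJC30 among them. The share at that level is therefore not a comparison at like level. DNAJC7 encodes a protein with both a J domain and TPR repeats that can bridge HSP70 and HSP90. It had 231, 237 and 231 CPM in CTI-2 libraries, against 202, 177 and 178 CPM in control libraries. Every CTI-2 library was above every control. The gene (ENSG00000168259, chromosome 17, 41976433 to 42021376, minus strand) had a log2 fold change of 0.38 (SE 0.11, 95% interval 0.16 to 0.59, edgeR adjusted p = 0.0227), or 1.30-fold. The call was lost without CTI-2 library 1, 2 or 3 (adjusted p = 0.0836, 0.111 and 0.0991) and without control 3 (0.0590). DNAJC7 overlaps CNP and NKIRAS2 on the opposite strand, and since use of strand in the counting is not given, some of its reads could belong to them.

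The summed level of each J-domain class separated the groups, as a description without a test. A sum follows its most abundant genes. Of all genes with a mean of at least 100 CPM, 72.8% had positive log2 fold changes (median 0.14). How often sums of other gene sets separate the groups was not computed. The DNAJA genes, the class closest to bacterial DnaJ, summed to 619, 599 and 651 CPM in CTI-2 libraries, against 553, 564 and 505 CPM in control libraries, so the CTI-2 mean was 115% of the control mean. The DNAJB genes summed to 639, 635 and 677 CPM in CTI-2 libraries, against 601, 562 and 581 CPM in control libraries (112%). The more varied DNAJC genes summed to 1669, 1635 and 1652 CPM in CTI-2 libraries, against 1525, 1467 and 1441 CPM in control libraries (112%). In each class the lowest CTI-2 library exceeded the highest control.

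Within the DNAJA class all 3 tested genes had positive log2 fold changes, from 0.22 to 0.30, and none was called. DNAJA2 had 154, 153 and 161 CPM in CTI-2 libraries, against 138, 132 and 122 CPM in control libraries (log2 fold change 0.30, SE 0.11, edgeR adjusted p = 0.0824). DNAJA1, the major cytosolic member, had 379.9, 354 and 394 CPM in CTI-2 libraries, against 334, 364 and 298 CPM in control libraries, which overlapped (log2 fold change 0.22, edgeR adjusted p = 0.237). DNAJA3, whose protein works in the mitochondrion, had 83.7, 91.0 and 93.7 CPM in CTI-2 libraries, against 78.6, 66.9 and 83.0 CPM in control libraries (log2 fold change 0.29, edgeR adjusted p = 0.122). Without control 2, DNAJA1 and DNAJA2 passed (adjusted p = 0.0081 and 0.0176), in a fit that called 9.57% of all genes higher. With any other library left out neither passed (edgeR adjusted p 0.294 to 0.589 for DNAJA1 and 0.160 to 0.258 for DNAJA2).

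Of 6 DNAJB genes tested 5 had positive log2 fold changes (median 0.21). DNAJB6, an inhibitor of polyglutamine aggregation, had 375, 364 and 408 CPM in CTI-2 libraries, against 335, 334 and 317 CPM in control libraries (log2 fold change 0.27, edgeR adjusted p = 0.119, and 0.0092 without control 2). The fit without control 2 called 9.57% of all genes higher. With any other library left out, edgeR adjusted p of DNAJB6 was 0.214 to 0.430. DNAJB1, the classical heat-inducible HSP40 gene, had 81.8, 88.0 and 86.9 CPM in CTI-2 libraries, against 81.3, 75.3 and 75.8 CPM in control libraries (log2 fold change 0.19, SE 0.12, edgeR adjusted p = 0.328). Neither pair of groups overlapped, but the distance for DNAJB1 between its lowest CTI-2 and highest control library was small beside the spread.

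Of 20 DNAJC genes tested 13 had positive log2 fold changes (median 0.15). DNAJC8, a J-domain protein associated with splicing, had 384, 365 and 388 CPM in CTI-2 libraries, against 325, 314 and 312 CPM in control libraries, without overlap (log2 fold change 0.31, edgeR adjusted p = 0.0669, DESeq2 adjusted p = 0.0346). The most negative log2 fold change of the class was that of DNAJC4, a gene of 3 to 16 reads a library, which had 0.951, 2.36 and 5.43 CPM in CTI-2 libraries, against 6.16, 3.31 and 6.38 CPM in control libraries, with overlap (log2 fold change -0.86, SE 0.45, edgeR adjusted p = 0.241). DNAJC30, of mitochondria, also had few reads, with 4.76, 8.76 and 4.98 CPM in CTI-2 libraries, against 10.8, 8.91 and 10.6 CPM in control libraries (log2 fold change -0.63, SE 0.28, edgeR adjusted p = 0.161). DNAJC10, an ER disulfide reductase, had 58.3, 69.8 and 58.0 CPM in CTI-2 libraries, against 72.0, 79.4 and 83.8 CPM in control libraries (log2 fold change -0.29, edgeR adjusted p = 0.152). DNAJC30 and DNAJC10 were lower in every CTI-2 library than in every control, as were 15.6% of all genes tested. None of the 3 genes passed the test.

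**Figure D3:**
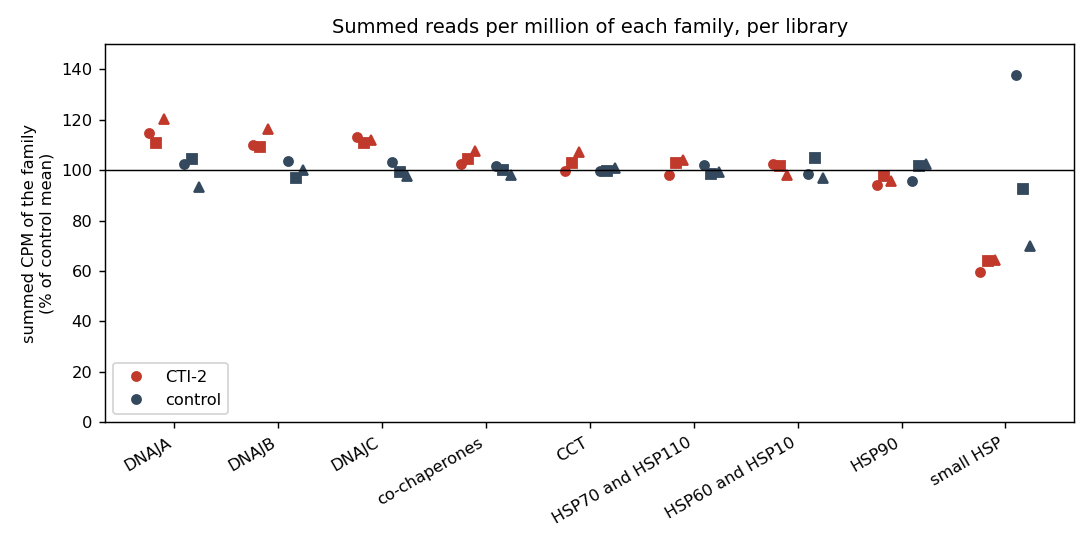
Summed CPM of each chaperone family in each library as a percent of the control mean of that family, with CTI-2 points left of control points. The DNAJA, DNAJB and DNAJC sums lie at 115%, 112% and 112% of control on average. The small HSP sum, taken over all genes whose symbols start with HSPB, lies at 62.5%.

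The HSP90 genes did not differ beyond their spread. HSP90AA1, the stress-inducible cytosolic HSP90 gene, had 1807, 1886 and 1849 CPM in CTI-2 libraries, against 1840.0, 1974 and 1963 CPM in control libraries (log2 fold change -0.01, SE 0.12, 95% interval -0.25 to 0.22, edgeR adjusted p = 0.968). HSP90AB1 had 2671, 2732 and 2778 CPM in CTI-2 libraries, against 2577, 2689 and 2752 CPM in control libraries (log2 fold change 0.08, SE 0.12, edgeR adjusted p = 0.734). TRAP1, the mitochondrial HSP90 gene, had 51.4, 49.2 and 43.9 CPM in CTI-2 libraries, against 54.3, 39.4 and 63.8 CPM in control libraries (log2 fold change -0.04, edgeR adjusted p = 0.900). The groups overlapped for all 3 genes, so a difference was not shown; the interval of HSP90AA1 does not show that its level was the same.

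Among the 6 co-chaperone genes of HSP90 and HSP70, CHORDC1 rose and the other 5 did not pass. CHORDC1 encodes a zinc-binding HSP90 partner. It had 137, 120.0 and 132 CPM in CTI-2 libraries, against 95.9, 103 and 100.01 CPM in control libraries. The lowest CTI-2 library exceeded the highest control. The gene (ENSG00000110172, chromosome 11, 90201160 to 90223364, minus strand) averaged 129.7 ± 8.77 CPM with CTI-2 and 99.7 ± 3.59 CPM in controls (SD, n = 3 each), a log2 fold change of 0.42 (SE 0.11, 95% interval 0.19 to 0.65, edgeR adjusted p = 0.0164), or 1.34-fold. The call was lost without CTI-2 library 1 or 3 (adjusted p = 0.0947 and 0.0762) or control 1 (0.0913), while it was kept in DESeq2 (adjusted p = 0.0265).

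The CHORDC1 promoter is shown beside that of HSPA8 because it too holds heat shock element matches, 3 that overlap in 1 run, although the 2 genes moved in opposite directions. The 250 bases before the RefSeq start (chr11:90223050-90223299, GRCh38.p14, minus strand, 5′ to 3′) carry the run in capitals.
CHORDC1: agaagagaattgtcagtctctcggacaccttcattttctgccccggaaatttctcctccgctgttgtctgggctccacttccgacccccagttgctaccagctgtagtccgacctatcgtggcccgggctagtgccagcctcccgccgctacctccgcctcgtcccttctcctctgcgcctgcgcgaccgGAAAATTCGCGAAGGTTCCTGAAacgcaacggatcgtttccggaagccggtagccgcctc

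STIP1, which passes clients between HSP70 and HSP90, had 427, 436 and 450.1 CPM in CTI-2 libraries, against 397, 411 and 401 CPM in control libraries, without overlap (log2 fold change 0.17, edgeR adjusted p = 0.351, and 0.0372 without control 2). The fit without control 2 called 9.57% of all genes higher. With any other library left out, edgeR adjusted p of STIP1 was 0.483 to 0.632. CDC37, which brings kinases to HSP90, had 137, 129 and 133 CPM in CTI-2 libraries, against 177, 141 and 146 CPM in control libraries, also without overlap but in the other direction (log2 fold change -0.17, edgeR adjusted p = 0.381). The HSP90 ATPase activator AHSA1 and the p23 gene PTGES3 had log2 fold changes of 0.11 and 0.10, and BAG3, a nucleotide exchange factor of HSP70 and a common HSF1 target, had -0.18 (edgeR adjusted p = 0.592, 0.618 and 0.596). Of the heat shock factor genes themselves, HSF1 had 22.8, 25.3 and 27.2 CPM in CTI-2 libraries, against 20.4, 18.6 and 17.02 CPM in control libraries, without overlap (log2 fold change 0.46, SE 0.18, edgeR adjusted p = 0.108). HSF2 had a log2 fold change of 0.27 (edgeR adjusted p = 0.371).

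The small heat shock proteins hold unfolded clients without ATP. HSPB1, which encodes HSP27, had the most negative log2 fold change of the 63 genes, but its control libraries spread too widely for the test to call it. It had 216, 236 and 258 CPM in CTI-2 libraries, against 701, 414 and 283 CPM in control libraries. The highest CTI-2 library lay just under the lowest control, and the controls differed among themselves by more than that control differed from any CTI-2 library. The gene (ENSG00000106211, chromosome 7, 76302544 to 76304295, plus strand) averaged 237 ± 20.9 CPM with CTI-2 and 466 ± 214 CPM in controls (SD, n = 3 each; log2 fold change -0.93, SE 0.37, 95% interval -1.93 to 0.07, edgeR adjusted p = 0.236). It was called without control 1 (log2 fold change -0.54, adjusted p = 0.0397), without control 3 (-1.20, adjusted p = 0.0012) and in limma-voom (-0.83, adjusted p = 0.0152), and not in DESeq2 (adjusted p = 0.133). The small HSP family was summed over all genes whose symbols start with HSPB. It includes HSPB11, HSPBAP1 and HSPB2-C11orf52, which share a name with a chaperone. The family summed to 370, 397 and 399 CPM in CTI-2 libraries, against 855, 576 and 434 CPM in control libraries. Without HSPB1 it summed to 153, 161 and 141 CPM in CTI-2 libraries, against 154, 162 and 150.2 CPM in control libraries. The difference of the family was thus that of HSPB1. HSPB8, a partner of BAG3, had a log2 fold change of 0.04 (edgeR adjusted p = 0.915).

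The chaperonin and import genes of the mitochondrion did not pass the test. HSPD1, which encodes HSP60, had 1617, 1613 and 1647 CPM in CTI-2 libraries, against 1582, 1605 and 1586 CPM in control libraries (log2 fold change 0.08, SE 0.11, edgeR adjusted p = 0.716). HSPE1, its HSP10 lid, had 1150.5, 1133 and 994 CPM in CTI-2 libraries, against 1072, 1223 and 1031 CPM in control libraries (log2 fold change 0.02, SE 0.12, edgeR adjusted p = 0.933). Groups overlapped for HSPE1, while those of HSPD1 were separated by a gap that is small beside the SE. The 2 genes overlap on opposite strands, and GENCODE 29 names 17 pseudogenes of HSPD1 and 26 of HSPE1, none in the count table, so their counts are uncertain.

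HSPA9, the mitochondrial HSP70 gene, had 691, 714 and 729 CPM in CTI-2 libraries, against 662, 661 and 657 CPM in control libraries, without overlap (log2 fold change 0.16, SE 0.11, edgeR adjusted p = 0.397, and 0.0444 without control 2). Its J-domain partner at the import pore, DNAJC19, had 285, 252 and 269 CPM in CTI-2 libraries, against 228, 233 and 201 CPM in control libraries (log2 fold change 0.33, SE 0.11, edgeR adjusted p = 0.0617, and 0.0040 without control 2). DNAJC15, a close relative of DNAJC19, had 78.3, 80.2 and 78.3 CPM in CTI-2 libraries, against 68.9, 72.8 and 51.5 CPM in control libraries (log2 fold change 0.32, SE 0.13, edgeR adjusted p = 0.127). All 3 genes were higher in every CTI-2 library than in every control, as were 13.2% of all genes tested. Of the 1722 genes with a mean of at least 100 CPM, 616 were higher in this way. None of the 3 passed the test over all libraries, and DNAJC15 was named after its values were seen. The fit without control 2 called 9.57% of all genes higher, against 3.39% over all libraries. With any other library left out, edgeR adjusted p was 0.525 to 0.668 for HSPA9 and 0.110 to 0.245 for DNAJC19.

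Grouped by the compartment in which the protein is known to reside, an annotation made after the values were seen, 10 genes were mitochondrial and 9 of them were tested. None was called, and CPM did not overlap for 6 that were higher and 1 that was lower with CTI-2, against 13.2% and 15.6% of all genes. Of the 1722 genes with a mean of at least 100 CPM, 616 were higher without overlap. DNAJA3, DNAJC15, DNAJC30 and TRAP1 lie below that level, so that class is not matched to the mitochondrial genes. The median log2 fold change of the mitochondrial genes was 0.16, against 0.14 at that level and -0.01 for all genes tested. The grouping was made after the values were seen, so nothing is read from the count. The symbol pattern also took in 9 genes of the ER or its membrane, HSPA13, DNAJB12, DNAJB14, DNAJC1, DNAJC10, DNAJC14, DNAJC16, DNAJC18 and DNAJC25, so the set is wider than the cytosol and the mitochondrion. Of these 7 were tested, none was called, and the median was 0.05. It also took in HSPBAP1, HSPB11 and the readthrough genes HSPE1-MOB4 and HSPB2-C11orf52, which share a name with a chaperone. Among the 5 ER chaperone genes outside the set, HSPA5, the ER HSP70 gene, had 811, 886 and 814 CPM in CTI-2 libraries, against 1167, 1281 and 1707 CPM in control libraries (log2 fold change -0.67, edgeR adjusted p = 0.0006), and the other 4 were not called.

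**Figure D4:**
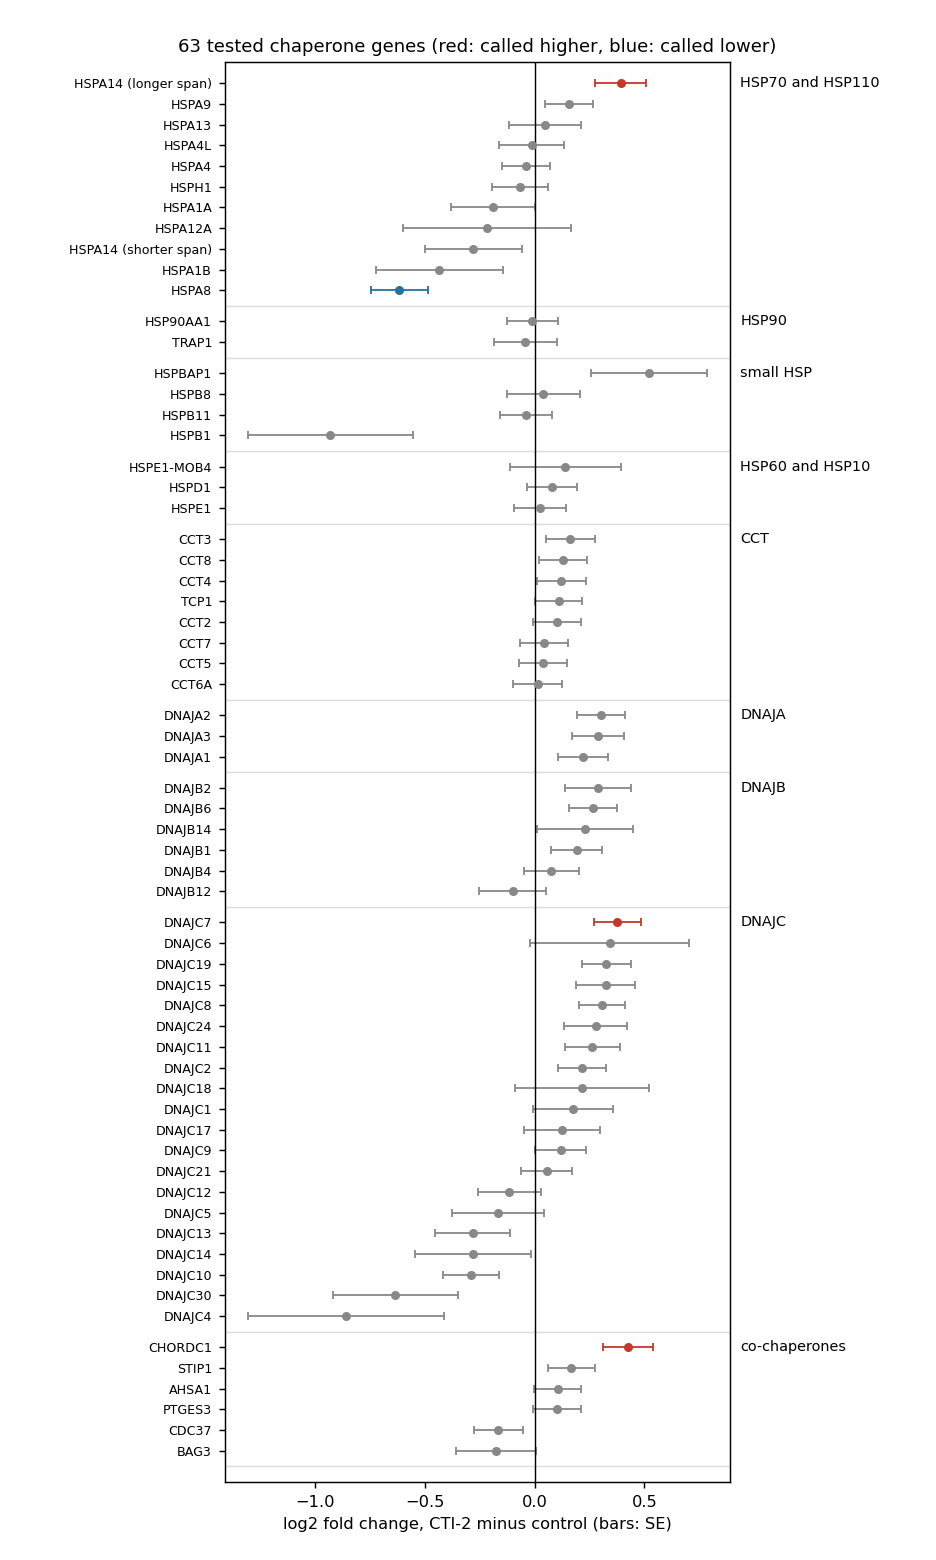
Log2 fold change (CTI-2 over control, horizontal axis) with its SE for each of the 63 chaperone genes tested, grouped by family, with called genes marked. The CCT genes lie between 0.01 and 0.16, HSPA8 lies at -0.61 with an SE of 0.13, and HSPB1 at -0.93 carries an SE of 0.37.

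The CCT ring folds actin and tubulin, which every dividing cell makes in bulk. Its 8 tested genes (TCP1, CCT2, CCT3, CCT4, CCT5, CCT6A, CCT7 and CCT8) had log2 fold changes between 0.01 and 0.16 with a median of 0.11, and none was called; with scaling to library totals CCT5, CCT6A and CCT7 turned negative. CCT3 had the largest of the 8, with 1124, 1097 and 1263 CPM in CTI-2 libraries, against 1085, 1050.0 and 1088 CPM in control libraries (log2 fold change 0.16, SE 0.11, edgeR adjusted p = 0.395). CCT6A had the smallest, with 614, 694 and 682 CPM in CTI-2 libraries, against 663, 711 and 663 CPM in control libraries (log2 fold change 0.01, SE 0.11, edgeR adjusted p = 0.962). Only the CCT3 groups did not overlap. Summed, the ring genes had 4622, 4769 and 4974 CPM in CTI-2 libraries, against 4619, 4615 and 4672 CPM in control libraries, a CTI-2 mean at 103% of the control mean.

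Prefoldin hands nascent actin and tubulin to the CCT ring. Of 15 prefoldin and tubulin cofactor genes tested 3 were called higher, all of them prefoldin subunits, and none lower, with a median log2 fold change of 0.23. Over all genes 3.39% were called higher, and 11.0% of those with a mean of at least 100 CPM. The 3 called genes lie at that level, but most of the 15 do not, UXT and TBCC among them. The count is a description of the list and no test of it. PFDN2 had 342, 359 and 324 CPM in CTI-2 libraries, against 258, 286 and 235 CPM in control libraries (log2 fold change 0.44, SE 0.11, edgeR adjusted p = 0.0130). PFDN1 had 128, 136 and 138 CPM in CTI-2 libraries, against 109, 106 and 99.6 CPM in control libraries (log2 fold change 0.40, edgeR adjusted p = 0.0214). VBP1 had 177, 192 and 191 CPM in CTI-2 libraries, against 159, 148 and 132 CPM in control libraries (log2 fold change 0.39, edgeR adjusted p = 0.0238). Groups did not overlap for these 3. All 3 calls were kept without control 2 and lost without control 3 (adjusted p = 0.0515, 0.0702 and 0.0940 for PFDN2, PFDN1 and VBP1), CTI-2 library 1 (0.0560, 0.0505 and 0.0530) or CTI-2 library 2 (0.0840, 0.0956 and 0.110). Without control 1 PFDN2 and PFDN1 were lost (0.0680 and 0.0649), and without CTI-2 library 3 PFDN1 and VBP1 were (0.109 and 0.113).

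Of 21 regulators of HSP70 and HSP90 tested, 18 did not pass, 1 was called higher and 2 lower, with a median log2 fold change of 0.09. Over all genes 3.39% were called higher and 4.64% lower, so these few calls do not set the list apart. HSPBP1, which releases nucleotide from HSP70, had 9.20, 11.5 and 12.7 CPM in CTI-2 libraries, against 33.1, 20.6 and 16.6 CPM in control libraries (log2 fold change -1.04, SE 0.23, edgeR adjusted p = 0.0046, and 0.0580 without control 1). BAG6, a chaperone of tail-anchored proteins, had 46.6, 57.3 and 52.1 CPM in CTI-2 libraries, against 77.4, 66.9 and 75.8 CPM in control libraries (log2 fold change -0.44, SE 0.13, edgeR adjusted p = 0.0254). HSBP1, a binding partner of HSF1, had 175, 174 and 191 CPM in CTI-2 libraries, against 147, 149.6 and 131 CPM in control libraries (log2 fold change 0.38, SE 0.11, edgeR adjusted p = 0.0283). None of the 3 genes overlapped between groups, but some calls rested on single libraries. BAG6 did not pass when CTI-2 library 1 or 3 was left out (adjusted p = 0.155 and 0.0826), nor when control 1 was (0.0954). HSBP1 was kept only without control 2 (0.0031) and was lost without control 1 or 3 (0.0913 and 0.105) and without CTI-2 libraries 1, 2 and 3 (0.0772, 0.0769 and 0.160).

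Of 13 mitochondrial partner and protease genes tested, SPG7, a subunit of the inner membrane m-AAA protease, was called lower and no other passed (median log2 fold change -0.09), against 4.64% of all genes called lower. SPG7 had 17.8, 19.5 and 20.8 CPM in CTI-2 libraries, against 53.9, 35.6 and 44.3 CPM in control libraries (log2 fold change -1.14, SE 0.17, edgeR adjusted p = 2.5e-05). Its call held whichever library was left out. Its partner subunit AFG3L2 had a log2 fold change of -0.14 (edgeR adjusted p = 0.668).

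Heat shock elements were then looked for in the 250 bases before each RefSeq start. RefSeq windows were found for 69 chaperone genes, 90 windows in all, and 5 of them (5.56%) held GAANNTTCNNGAA on either strand, against 155 of 35116 windows of all genes (0.441%). The shorter pairs GAANNTTC or TTCNNGAA, which the longer motif contains, stood in 20 of the 90 windows (22.2%) and in 11.6% of all windows. No window was used for HSPA14, CCT6A, DNAJC1, DNAJC22, DNAJC24, HSPA12B, HSPB11 or HSPB2-C11orf52. A match describes letters in a window and not a bound site. Beside HSPA8 and CHORDC1, the 5 genes were HSP90AA1, DNAJB6 and HSPD1, and 60 bases around each match are printed with the heat shock element in capitals, to be read beside their log2 fold changes of -0.01, 0.27 and 0.08. They are chr14:102087095-102087154 on the minus strand, chr7:157336854-157336913 on the plus strand and chr2:197500031-197500090 on the minus strand, all in GRCh38.p14. The window of HSPB1 held only a pair, shown in capitals in chr7:76302463-76302522 on the plus strand.
HSP90AA1: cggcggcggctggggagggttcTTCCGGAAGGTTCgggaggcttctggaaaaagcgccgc
DNAJB6: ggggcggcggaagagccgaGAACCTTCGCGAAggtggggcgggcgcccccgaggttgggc
HSPD1: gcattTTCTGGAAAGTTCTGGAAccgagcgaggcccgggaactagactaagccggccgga
HSPB1: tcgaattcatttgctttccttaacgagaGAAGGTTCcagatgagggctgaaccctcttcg

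The 5 genes whose window held an exact match to the longer motif differed in their calls: 1 was higher with CTI-2, 1 was lower, and 3 did not pass. The windows of HSPA1A, HSPA1B and DNAJB1 held shorter pairs but no exact match to the longer motif. Longer elements with a mismatch were not searched for, so a window without a match does not show that a gene lacks a heat shock element.

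Among fits that left out 1 library, the count of chaperone genes called moved most without control 2. Without it 11 of the 63 tested were called higher (CHORDC1, DNAJA1, DNAJA2, DNAJB6, DNAJC15, DNAJC19, DNAJC7, DNAJC8, HSPA14, HSPA9 and STIP1) and HSPA8 lower, against 9.57% and 6.53% of all genes. Calls to higher ran with level in the fit of all libraries (11.0% of genes with a mean of at least 100 CPM, against 3.39%). A share at like level was not computed without control 2, so nothing is read from this count. Without control 1 DNAJC7 and DNAJB2 were called higher (DNAJB2 adjusted p = 0.0397) and HSPA8 and HSPB1 lower, against 1.46% and 2.95% of all genes. Without control 3 CHORDC1 was called higher and HSPA8 and HSPB1 lower (1.76% and 3.64% of all genes). HSPA8 was the 1 chaperone gene called lower without each of the CTI-2 libraries (3.3%, 3.0% and 2.74% of all genes without libraries 1, 2 and 3), and CHORDC1 was called higher without library 2 (1.5%) and no chaperone gene without library 1 (1.62%) or 3 (1.08%). With all 6 libraries DESeq2 called CHORDC1, DNAJC7 and DNAJC8 higher and HSPA8 lower (3.78% and 3.25% of all genes), and limma-voom called CHORDC1, DNAJC7 and HSPA14 higher and HSPA8 and HSPB1 lower (3.03% and 4.24%). HSPA8 was called in every one of these fits. All 4 calls were lost in limma on log2(CPM + 1), where adjusted p was 0.0870 for HSPA8, 0.154 for CHORDC1, 0.167 for HSPA14 and 0.185 for DNAJC7 and a single gene of the table passed, and when a fold over 1.5 was tested.

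**Figure D5:**
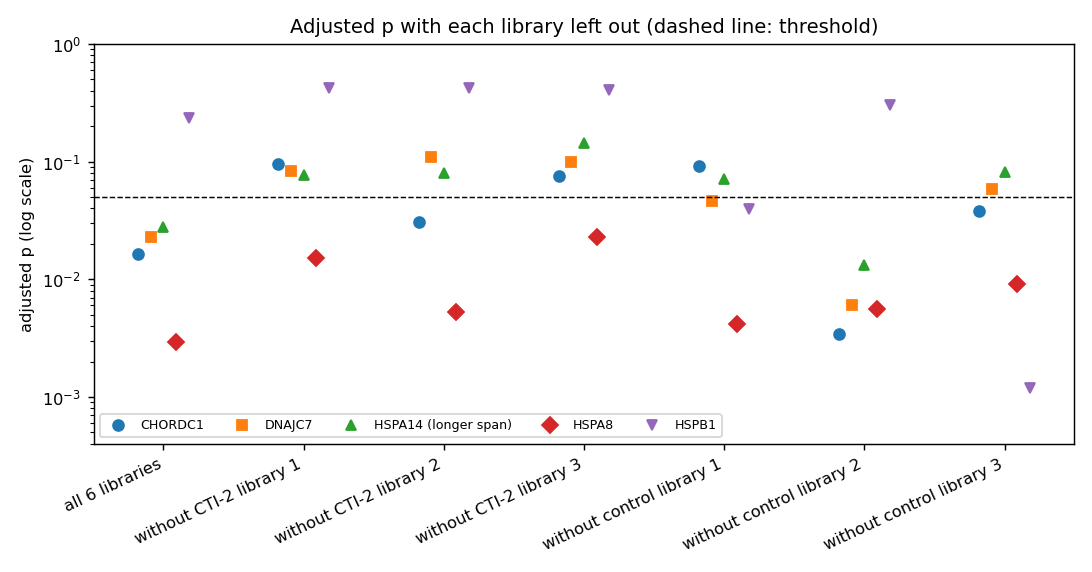
Adjusted p (log scale) of CHORDC1, DNAJC7, HSPA14 (longer span), HSPA8 and HSPB1 with all 6 libraries and with each library left out, with the threshold of 0.05 as a dashed line. HSPA8 stays below the line throughout (0.0029 to 0.0228), while the other 4 genes cross it.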

How the data were processed

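Per the labels, total RNA of MDA-MB-231 cells was taken in Trizol and made into cDNA-PCR libraries for Oxford Nanopore reads. Minimap2 is named in the submitters' processing notes. The sources used here name no version, genome build, annotation, read counter or strand setting. Per gene, the authors deposited raw read counts and a table of CPM, which equalled counts divided by the library total within 1e-09. Reads were amplified without molecular identifiers, so the 3-count floors cover counting error only.

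The labelled agent defined the groups. After filterByExpr at its defaults (9848 genes kept) and TMM scaling, the quasi-likelihood test of edgeR 4.0.16 (robust glmQLFit, then glmQLFTest; R 4.3.3) compared CTI-2 with control, and p-values were adjusted by Benjamini-Hochberg over all genes tested. An SE is the log2 fold change divided by the square root of its F statistic, and the common biological coefficient of variation was 0.100. The fit was tested on simulated counts that gave every gene the same dispersion and set no library apart. That test does not show how the fit behaves where a library stands apart, as control 2 did here. Tables were joined in Python 3.11.15 with pandas 2.3.3. Alternatives were scaling by library totals or DESeq2's size factors, no filter, 20 counts in 3 libraries, DESeq2 1.42.0, limma 3.58.1 (voom, and log2(CPM + 1) or log2(CPM + 0.5)), a replicate block, each library left out, removal of the trend with transcript length (lowess span 0.3), an adjusted p of 0.01 and a fold over 1.5 (glmTreat).

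All 14408 Ensembl identifiers are in GENCODE 29, and gene coordinates are given only where its span equals the deposited length (62 of 78 genes). Promoters come from RefSeq on GRCh38.p14. Protein sequences were not used here. Named genes were every called chaperone gene, the 3 of highest CPM in each family, a fixed list of well-known chaperones, the ER chaperones left out, HSF1, HSF2, and up to 3 called genes of each other list by adjusted p. DNAJB2, DNAJC4, DNAJC10, DNAJC15, DNAJC30, HSPBAP1 and AFG3L2 were named after their values were seen. The chaperone genes and the other lists were chosen with earlier results of these data known.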

Additional observations from a re-analysis of the deposited data

How the results depend on the processing

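Of all genes tested 334 were called higher and 457 lower. Limma on log2(CPM + 1) and on log2(CPM + 0.5) called 1 higher and 0 lower, an adjusted p of 0.01 called 107 and 199, a fold over 1.5 called 2 and 21, and DESeq2 called 271 and 233. With 1 library left out the counts ran from 113 to 957 higher and from 287 to 653 lower. Of the chaperone genes, 3 higher and 1 lower, limma at both pseudocounts and the fold over 1.5 called 0 and 0, an adjusted p of 0.01 called 0 and 1, limma-voom called 3 and 2, and leaving out 1 library gave 0 to 11 higher and 1 to 2 lower. In edgeR 10 chaperone genes were higher and 3 lower at an unadjusted p under 0.05. The cause was not tested. The median log2 fold change of the chaperone genes was 0.05 to 0.12 over all alternatives. These did not all fit the same 63 genes: 59 were tested at 20 counts in 3 libraries and 78 with no filter. The median SE is that of single genes and does not measure the spread of this median. DESeq2 gave 7163 genes an adjusted p.

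Same-numbered libraries deviated from their group means with correlations of -0.05, 0.01 and -0.12. The labels do not say whether they share more than a number, and deviations within groups this small cannot settle it. The replicate block called 356 genes higher and 586 lower, and 3 and 1 of the chaperone genes; not every library correlated best with its own number.

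Among the named genes signs turned for 12, none of them called. With library totals the log2 fold changes were CCT5 -0.011, CCT6A -0.036, CCT7 -0.010, HSPB8 -0.0099 and HSPE1 -0.023. With limma at either pseudocount they were CCT5 -0.0087, CCT6A -0.034, CCT7 -0.0078, HSPB8 -0.013 and HSPE1 -0.020. At 20 counts in 3 libraries CCT6A was at -0.0082, with the length trend removed HSPE1 was at -0.036, and in DESeq2 HSP90AA1 was at 0.012. With 1 library left out the values ran from -0.017 to 0.14 (CCT5), -0.035 to 0.10 (CCT6A), -0.0072 to 0.12 (DNAJB4), -0.054 to 0.061 (HSP90AA1), -0.23 to 0.033 (HSP90B1), -0.099 to 0.031 (HSPA4), -0.15 to 0.084 (HSPB11), -0.056 to 0.14 (HSPB8), -0.057 to 0.16 (HSPE1), -0.17 to 0.083 (HSPH1) and -0.18 to 0.087 (TRAP1).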
